A study of Arabidopsis thaliana with 6 samples.

Results

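The genes described here are the plastid-encoded genes of Arabidopsis thaliana that make, process or translate plastid RNA, together with the few plastid genes that serve other housekeeping roles. The rule that picked them uses annotation and no measured value, but it was chosen with earlier results of these data known. A probe set had to be listed for 1 gene of the plastid genome. The product of that gene could be no subunit of a photosystem, the cytochrome complex, the NADH dehydrogenase-like complex, the ATP synthase or Rubisco. This gave 26 genes with 1 probe set each, out of 69 plastid genes and 22746 probe sets tested. They are 4 genes of RNA polymerase (rpoA, rpoB, rpoC1, rpoC2), 8 of the small ribosomal subunit (rps2, rps3, rps4, rps14, rps15, rps16, rps18, rps19), 7 of the large subunit (rpl14, rpl16, rpl20, rpl22, rpl32, rpl33, rpl36) and 7 others (accD, ccsA, cemA, clpP, matK, ycf3, ycf4). A further 7 plastid probe sets are listed under 2 gene IDs and belong to no member.

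Total RNA of whole 9-day-old seedlings was hybridised to 6 Affymetrix arrays in 3 groups of 2. Line HY213, taken here to be the pER22-AGL24 line of the design text, received either mock solution or estradiol, wild-type seedlings received estradiol, and the 3 groups were collected 8 h later. In the XVE system a chimeric transcription factor drives the transgene once estradiol is present, so mock-treated HY213 carries the transgene uninduced, and the wild type lacks it but receives the chemical. The ecotype is given as Columbia for all samples but mock HY213 replicate 1, where none is stated, and the design text describes each replicate as a biologically independent pool. AGL24, the induced MADS-box gene, read 106 and 401 in estradiol-treated HY213 and at most 5.05 on the other 4 arrays. Array medians lay between 6.95 and 7.27 intensity units, and the highest Bacillus control probe set, used here as background, stood at 5.99 to 6.22 on the replicate 1 arrays and at 5.14 to 5.31 on the replicate 2 arrays. Of the markers of green tissue, 3 of 10 could be named on the array (RCA, LHCB4.1 and PSAN), and all read far above background on every array, while 0 of 9 root and 0 of 12 seed markers could be named. Seedlings are mixtures of cell types, so fewer plastid-rich cells and less plastid RNA per cell cannot be told apart.

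Plastids transcribe their genome with a bacterial-type RNA polymerase, whose core subunits are plastid-encoded and whose sigma factors come from the nucleus, and with a phage-type polymerase encoded wholly in the nucleus. Photosynthesis genes depend mostly on the former, whereas genes such as accD, clpP and those of the rpoB transcription unit have promoters for the latter. The transcripts are often polycistronic, are spliced and edited, and are read by a bacterial-type ribosome that mixes plastid- and nuclear-encoded proteins. Stable plastid mRNAs carry little polyadenylation, so a labelling primed on poly(A) tails would sample them poorly. The labels give only the manufacturer's labelling protocol, and brightness is therefore compared within a probe set and not between genes.

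The plot of intensity by array shows a difference between the replicate numbers in part of the members. Some were several-fold apart between the arrays numbered replicate 1 and those numbered replicate 2, and mostly closer between the 3 groups within a number. More than 2-fold lower in replicate 2 within all 3 groups were 5 of the 26, against 0.339% of all probe sets. In a limma model on log2(intensity + 16) with group and replicate number as terms, 13 of the 26 members differed between the replicate numbers at an adjusted p under 0.05. Of these, 9 were lower in replicate 2, against 4.57% of all 22746 probe sets, and 4 were higher, against 6.47%. At an unadjusted p under 0.05 there were 19 members, against 28.1% of probe sets. The p-values measure how far the 3 groups repeat the difference between 2 sets of seedling pools. In what follows array values are given for mock HY213, estradiol HY213 and estradiol wild type, in that order.

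**Figure D1:**
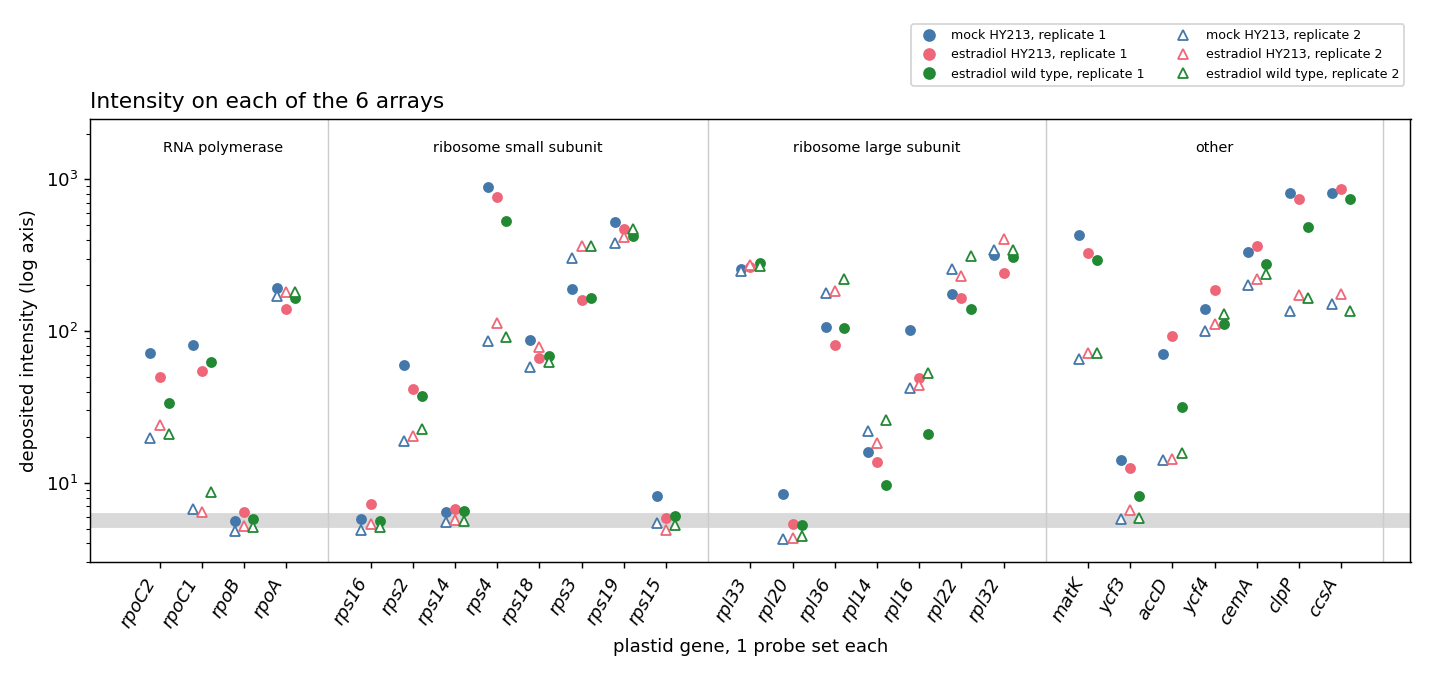
Deposited intensity (log axis) of each of the 26 genes on each of the 6 arrays, with filled circles for replicate 1, open triangles for replicate 2 and colours for the 3 groups; the grey band spans the highest Bacillus control of the 6 arrays (5.14 to 6.22). For rps4, clpP, ccsA and matK every replicate 1 value lies above every replicate 2 value, for rps3 and rpl36 the reverse, and rpoB, rps16, rps14, rpl20 and rps15 lie near the band.

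Among the RNA polymerase genes, rpoC1 and rpoC2 were lower in replicate 2. The gene rpoC1, which encodes the beta-prime subunit, read 80.6, 54.4 and 62.8 in replicate 1 and 6.72, 6.41 and 8.74 in replicate 2. Its replicate 2 values sit just above background, and the difference was -1.80 ± 0.10 (SE, n = 3 arrays a replicate) on the log2 scale, with an adjusted p of 0.000612. Its neighbour rpoC2, which encodes the beta-double-prime subunit, read 71.8, 49.6 and 33.5 against 19.7, 24.0 and 21.1, without overlap, a difference of -0.81 ± 0.15 (adjusted p 0.0166, and 0.0572 at most with 1 array left out, where the call was lost without either estradiol HY213 array). The gene of the alpha subunit, rpoA, lies elsewhere in the plastid genome and its replicates overlapped, at 192, 139 and 165 against 171, 179.5 and 179.9, with a difference of 0.10 ± 0.15 (adjusted p 0.707). The probe set of the beta subunit gene rpoB, the neighbour of rpoC1, read 5.60, 6.43 and 5.78 against 4.81, 5.21 and 5.15, above background on 1 of 6 arrays (-0.06 ± 0.02, adjusted p 0.0694), and no difference is read from it.

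The small-subunit genes moved in both directions. The gene rps4, whose product binds ribosomal RNA early in subunit assembly, had the widest difference of the 26 members on the log2(intensity + 16) scale. It read 895, 764 and 527 in replicate 1 and 86.5, 113 and 91.5 in replicate 2, which is 10.3-, 6.75- and 5.77-fold lower within the 3 groups (log2 difference -2.69 ± 0.17, adjusted p 0.000792). In raw intensity the folds of rpoC1 were larger in every group, with 8.49 and 7.18 in those on estradiol, and with a pseudocount of 1 its log2 difference was -3.01 against -2.87 for rps4, while with 64 it was -0.86 against -2.27. The gene rps2, which lies beside rpoC2, was also lower, at 60.1, 41.4 and 37.5 against 18.8, 20.4 and 22.8 (-0.75 ± 0.13, adjusted p 0.0113). In contrast, rps3 was higher in replicate 2, with 189, 159.5 and 165 against 301, 363 and 364 (0.93 ± 0.15, adjusted p 0.00952). All 3 of these genes had replicates that did not overlap.

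For rps18 and rps19 the replicates overlapped and the test was not passed. The gene rps18 read 86.8, 66.1 and 68.2 against 58.1, 78.6 and 62.7, and rps19 read 522, 470.2 and 420.4 against 381, 417 and 471, with differences of -0.12 ± 0.15 and -0.15 ± 0.14. The probe sets of rps14, rps15 and rps16 lay near background. They read 5.55 to 6.78, 4.91 to 8.24 and 4.90 to 7.22 over the 6 arrays, and rps14 alone stood above the Bacillus controls on all of them. The difference of rps16 was -0.07 ± 0.02 (adjusted p 0.0723).

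Of the large-subunit genes, 3 were higher in replicate 2 and 0 lower at the threshold, against 6.47% and 4.57% of all probe sets. The gene rpl36 read 107, 81.0 and 105 against 177, 183 and 219.8 (0.89 ± 0.14, adjusted p 0.00963). The gene rpl22 read 175, 164 and 140 against 257, 231 and 311 (0.68 ± 0.16, adjusted p 0.0357), and rpl14 read 16.1, 13.8 and 9.72 against 21.9, 18.3 and 26.1 (0.38 ± 0.10, adjusted p 0.0487). All 3 had replicates that did not overlap. With 1 array left out, the other array of its group adds nothing to the replicate difference. Leaving out either array of a group is therefore nearly the same fit. The calls of rpl22 and rpl14 were lost without any 1 of the 4 estradiol arrays, with adjusted p up to 0.173 and 0.188, and those of rpl36 and rps3 were lost without either estradiol HY213 array, with adjusted p up to 0.0779 and 0.0784. With all arrays, rpl14 and rpl22 were also lost after quantile normalization (adjusted p 0.0641 and 0.0669) and with a pseudocount of 64 (0.0596 and 0.0566), and rpl14 with a pseudocount of 1 (0.0509).

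The other large-subunit genes did not pass. The gene rpl32 read 315, 243 and 309.8 against 344, 403 and 341, without overlap but with an adjusted p of 0.226. The gene rpl33 had nearly the same level on every array, at 255, 265 and 281 against 248, 273 and 269 (-0.02 ± 0.13). The gene rpl16 did not behave alike in the 3 groups: it read 102, 49.2 and 20.9 in replicate 1, a wide spread, and 42.4, 44.3 and 53.2 in replicate 2. The probe set of rpl20 read 4.30 to 8.42, was above background on 1 array and differed by -0.13 ± 0.04 (adjusted p 0.0594).

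The genes with other roles were lower in replicate 2 where they passed, 5 of 7, against 4.57% of all probe sets called lower. The gene ccsA, whose product attaches haem to plastid c-type cytochromes, read 810, 866 and 745 against 150, 175 and 135, a difference of -2.29 ± 0.12 (adjusted p 0.000541). The gene clpP, which encodes a proteolytic subunit of the Clp protease, read 809, 741 and 483 against 135, 172 and 166 (-1.97 ± 0.19, adjusted p 0.00170). The gene matK, which encodes the maturase that helps splice several plastid introns, read 426, 324 and 294 against 65.7, 71.8 and 71.4 (-2.07 ± 0.16, adjusted p 0.00101). These 3 genes were at least 2.90-fold lower within every group.

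The gene accD, which encodes the plastid subunit of the acetyl-CoA carboxylase that starts fatty acid synthesis, read 70.2, 92.7 and 31.6 against 14.1, 14.4 and 15.8 (-1.31 ± 0.21, adjusted p 0.00874). The photosystem I assembly gene ycf3 read 14.1, 12.6 and 8.20 against 5.80, 6.64 and 5.87, close to background, with a difference of -0.32 ± 0.06 (adjusted p 0.0163, and up to 0.0851 without either estradiol HY213 array). The envelope protein gene cemA had replicates that did not overlap, at 331, 364 and 275 against 199.9, 222 and 238, but an adjusted p of 0.0638. The other photosystem I assembly gene, ycf4, read 141, 187 and 111 against 100.2, 112 and 129, and its replicates overlapped (adjusted p 0.315).

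Over all members, the replicates did not overlap in 20 of 26. In 15 of these replicate 2 was lower, against 18.5% of all probe sets, and in 5 it was higher, against 16.5%. Of the 43 plastid photosynthesis genes, 28 were lower without overlap and 4 higher. Of the 15 members, 5 are the dim probe sets of rps14, rps15, rps16, rpl20 and rpoB, whose difference has the same direction as that of the Bacillus controls. More than 2-fold lower in replicate 2 within all 3 groups were 5 members, against 0.339% of all probe sets: matK, rps4, ccsA, clpP and rpoC1. The same held for 11 of the 43 plastid photosynthesis genes. More than 2-fold higher in all 3 groups were 0 members, against 0.695%. With a variance prior that has no mean-variance trend, 4 members passed, namely ccsA (adjusted p 0.0400), rpoC1 (0.0429), rps4 (0.0449) and matK (0.0452), 7 passed without either estradiol HY213 array, and 0 passed once every value was raised to the highest Bacillus control. That last step makes 34.1% of probe sets constant but leaves the values of ccsA, rps4, clpP and matK unchanged. The loss of their calls there is therefore no measure of dim signal in these genes.

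**Figure D2:**
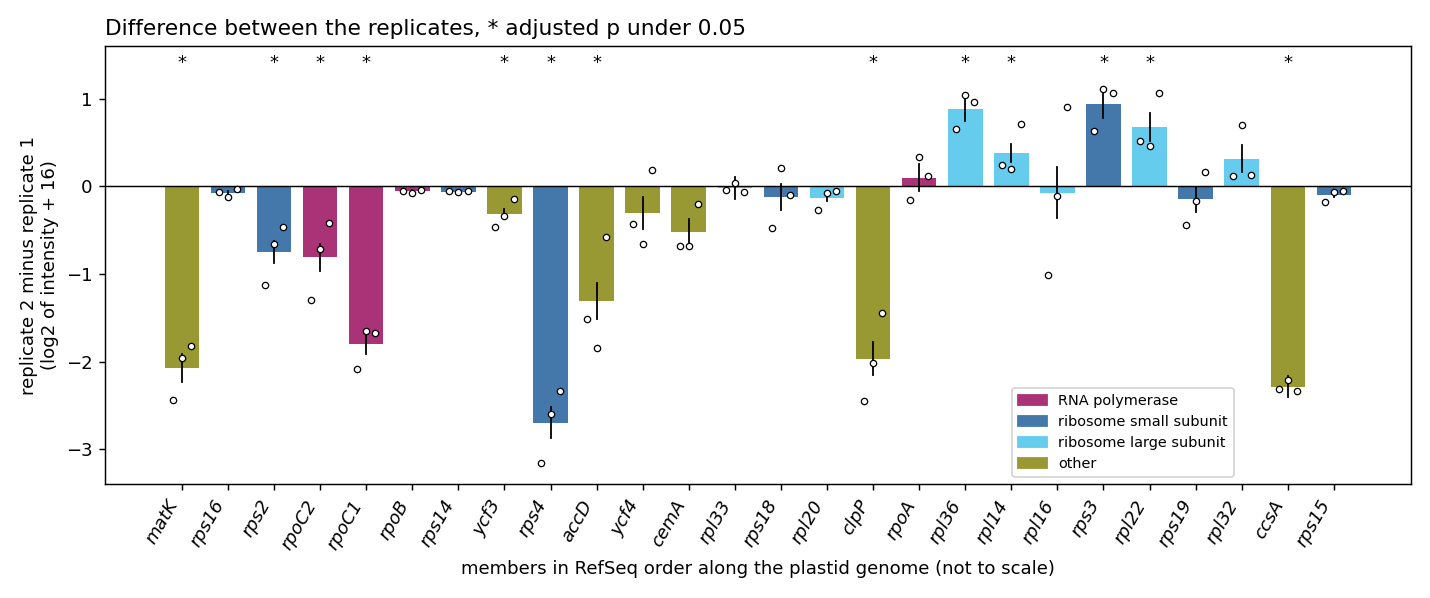
Replicate 2 minus replicate 1 on the log2(intensity + 16) scale for the 26 genes in RefSeq order along the plastid genome, as bars with the SE of the limma fit, with open points for mock HY213, estradiol HY213 and wild type from left to right and stars for an adjusted p under 0.05. The 4 starred bars above 0 lie between rpoA and rps19, and the deepest bars are those of rps4 (-2.69), ccsA (-2.29) and matK (-2.07).

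The 4 members that were higher in replicate 2 at the threshold, rpl36, rpl14, rps3 and rpl22, lie in 1 stretch of the RefSeq gene order that runs from rpoA to rps19. This stretch is known as a large ribosomal protein transcription unit. Of the 7 members in it, 4 were higher at the threshold, 0 were lower and 3 (rpoA, rpl16 and rps19) did not pass. Outside it, 9 of 19 members were lower at the threshold and 0 higher. Of all probe sets, 6.47% were higher and 4.57% lower at the threshold. The gene rpl32, outside the stretch, was higher in replicate 2 without overlap but did not pass. The rps2, rpoC2 and rpoC1 genes, which follow each other, were all lower. This grouping by position was noticed in the values and was not tested. Beside the 3 members with the deepest differences, the photosynthesis genes were lower too. The gene ndhD beside ccsA read 565, 607 and 418 against 60.6, 67.6 and 63.2. Beside matK, psbA read 559, 528 and 732 against 156, 164 and 163. Beside rps4, ndhJ read 59.4, 39.0 and 35.6 against 6.87, 7.42 and 7.04. Neighbours did not all follow. On the other side of ccsA, the member rpl32 differed by 0.32 (limma adjusted p 0.226). On the other sides of matK and rps4, the members rps16 (-0.072, near background) and ycf3 (-0.32) had negative differences. On one side of accD (-1.31), rbcL differed by -0.0049 (limma adjusted p 0.982). On its other side, psaI differed by -1.56 (limma adjusted p 0.00293). Beside rps2, atpI differed by -0.038 (limma adjusted p 0.248), near background. Whether neighbours change together was not tested. Of all 43 plastid photosynthesis genes, 25 were lower and 1 higher at the threshold, with a median log2 difference of -0.47, where the 26 members had a median of -0.13 and all probe sets -0.0066. The difference between these sets was not tested.

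Nuclear genes that work with the members are few among the named probe sets, 16 of 99 listed. Of 7 measured partners of the Clp protease, cytochrome maturation and photosystem I assembly, 7 were higher in replicate 2 and 0 lower. The smallest of these differences was 2.3e-05 on the log2 scale. At the threshold 3 passed, against 6.47% of all probe sets called higher. The gene of the inactive Clp subunit CLPR3 read 129, 99.4 and 97.6 against 158, 203 and 237 (0.78 ± 0.19, adjusted p 0.0355), and that of the Clp accessory protein CLPT2 read 93.4, 78.4 and 81.6 against 132, 159 and 130.2 (0.64 ± 0.14, adjusted p 0.0295). The proteolytic subunit gene CLPP4 read 98.8, 95.3 and 90.1 against 135, 144 and 132, without overlap, and did not pass (adjusted p 0.0565). The third to pass, named after its value was seen, was the photosystem I assembly factor gene PYG7, at 33.9 to 50.5 in replicate 1 and 65.2 to 77.7 in replicate 2 (0.52 ± 0.12, adjusted p 0.0294). The 3 genes that passed had the opposite sign to plastid-encoded clpP and ycf3. Of 6 measured nuclear genes for plastid ribosomal proteins, 0 passed, with 4 higher and 2 lower. Among them PRPL3 read 575, 566 and 574 against 507, 545 and 485, PRPL5 read 437, 359 and 388 against 512, 475 and 568, and PRPL17 read 474, 363 and 326 against 349, 341 and 339. The phage-type polymerase gene RPOTMP read 5.92 to 7.09, and the splicing factor genes CAF1 and CFM3A read 6.78 to 8.27 and 8.75 to 12.5, with 0 passing.

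Some other measures also differed between the replicate numbers. The summed level of the 3 green tissue markers was 1504 to 2006 in replicate 1 and 2351 to 2785 in replicate 2. Of the 3, RCA, which encodes Rubisco activase, passed the test (1.21 ± 0.30, adjusted p 0.0375). The array's 25S rRNA control probe set read 756 to 1248 in replicate 1 and 1504 to 1689 in replicate 2. The ratio of the 3′ to the 5′ probe set of GAPDH overlapped, at 2.76 to 3.54 in replicate 1 and 3.03 to 3.29 in replicate 2. That of ubiquitin was 1.82 to 2.29 in replicate 1 and 1.53 to 1.67 in replicate 2, without overlap. That of actin was 30.4 to 31.8 in replicate 1 and 23.4 to 28.4 in replicate 2, also without overlap. The part of each of these in the plastid differences was not tested.

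The first comparison sets HY213 on estradiol against HY213 on mock solution, which differ in AGL24 induction and in the chemical itself. Of the 26 members 0 passed, as did 0% of all probe sets. AGL24 itself, with a log2 difference of 3.43 ± 0.51, did not pass either, at a limma adjusted p of 1 and of 0.337 with the replicate block, so a count of 0 here does not show that members kept their level. At an unadjusted p under 0.05 there were 0 members against 1.2% of probe sets, and with the replicate number as a block 1 member against 4.23%, rps15, whose probe set lies near background (difference -0.09). The members that moved furthest up were ycf4, at 0.25 ± 0.31 (SE), and accD, at 0.17 ± 0.70, and furthest down rpl16, at -0.41 ± 0.41, and rpoC1, at -0.24 ± 0.88, all with a limma adjusted p of 1. The standard errors of this unblocked model hold the difference between the replicate numbers, and with the block they were 0.22, 0.25, 0.36 and 0.13. The arrays of a group did not repeat each other: rpl16 was lower after estradiol in replicate 1 (49.2 against 102) and close to mock in replicate 2 (44.3 against 42.4). The gene ycf4 read 187 against 141 and 112 against 100.2, higher in both. Within replicate 1, 18 of 26 members were lower after estradiol, against 52.9% of all probe sets, and 8 were higher, against 46.9%. Within replicate 2, 22 of 26 were higher, against 54.2%. Higher in both replicates were 8 members, against 25.6%, and lower in both 4, against 24.2%. Lower in replicate 1 and higher in replicate 2 were 14, against 28.5%, and 0 had the opposite pattern, against 21.2%. Among the 43 plastid photosynthesis genes these 2 counts were 16 and 5. The groups did not overlap in 1 member with higher values after estradiol, rpl33, against 12.8% of all probe sets, and in 0 with lower values, against 10.7%.

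The second comparison sets the same estradiol HY213 arrays against wild type given estradiol too, so that the line differs and the chemical does not. Here too 0 of 26 members and 0% of all probe sets passed, with 0 members at an unadjusted p under 0.05 against 0.774% of probe sets. The members furthest up were accD, at 0.56 ± 0.70 (SE), and rps4, at 0.39 ± 1.33, and those furthest down rpl36, at -0.28 ± 0.48, and rpoC1, at -0.15 ± 0.88. With the block the standard errors were 0.25, 0.21, 0.18 and 0.13, and 0 members reached an unadjusted p under 0.05, against 3.63% of probe sets. The gene accD read 92.7 against 31.6 in replicate 1 and 14.4 against 15.8 in replicate 2, so only the first pair lay far apart. In rps4 both replicates had the same sign, at 764 against 527 and 113 against 91.5, and so had rpl36, at 81.0 against 105 and 183 against 219.8. Within replicate 1, 18 members were higher in HY213, against 47.6% of all probe sets, and 8 lower, against 52.1%. Within replicate 2, 12 were higher, against 54.1%. Of all members 9 were higher in both replicates, against 27.4%, 5 lower in both, against 25.4%, 9 higher in the first and lower in the second, against 20%, and 3 the reverse, against 26.5%. For the 43 plastid photosynthesis genes the counts were 12, 4, 17 and 9, in the same order. The groups overlapped in all 26 members, while they did not in 12.7% of all probe sets with HY213 higher and 10.5% with HY213 lower.

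In the remaining pair, wild type on estradiol and HY213 on mock solution, both the line and the chemical differ. Of the members 0 passed, as did 0% of all probe sets. At an unadjusted p under 0.05 there were 0 members against 1.18% of probe sets, and 0 against 5.34% with the replicate block. The furthest down were rpl16, at -0.72 ± 0.41 (SE), and accD, at -0.39 ± 0.70, and the furthest up rpl36, at 0.13 ± 0.48, and rpl33, at 0.12 ± 0.21. With the block their standard errors were 0.36, 0.25, 0.18 and 0.16. The sign turned with the replicate number in most members. Within replicate 1, 23 of 26 were lower in wild type, against 50.5% of all probe sets, and 3 higher, against 49.4%. Within replicate 2, 23 of 26 were higher, against 50.2%. Lower in the first and higher in the second were 20 of 26, against 26.1%, and 0 had the opposite pattern, against 25.2%. Among the 43 plastid photosynthesis genes, 31 were lower within replicate 1 and 31 higher within replicate 2. Of those 43, 23 were lower in the first and higher in the second, and 4 had the opposite pattern. Of the 26 members, 3 were higher in both, against 24%, and 3 lower in both, against 24.2%. The gene rpl16 was the widest, with 20.9 in wild type and 102 in mock for replicate 1, and 53.2 and 42.4 for replicate 2. The groups did not overlap in 1 member with wild type higher, again rpl33, against 11.4%, and in 0 with wild type lower, against 10.6%. The median log2 difference of the members was -0.29 in replicate 1 and 0.092 in replicate 2, where all probe sets had -0.00083 and 0.00019. Neither the shift within a replicate nor its turn was tested, since each replicate has 1 array a group.

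**Figure D3:**
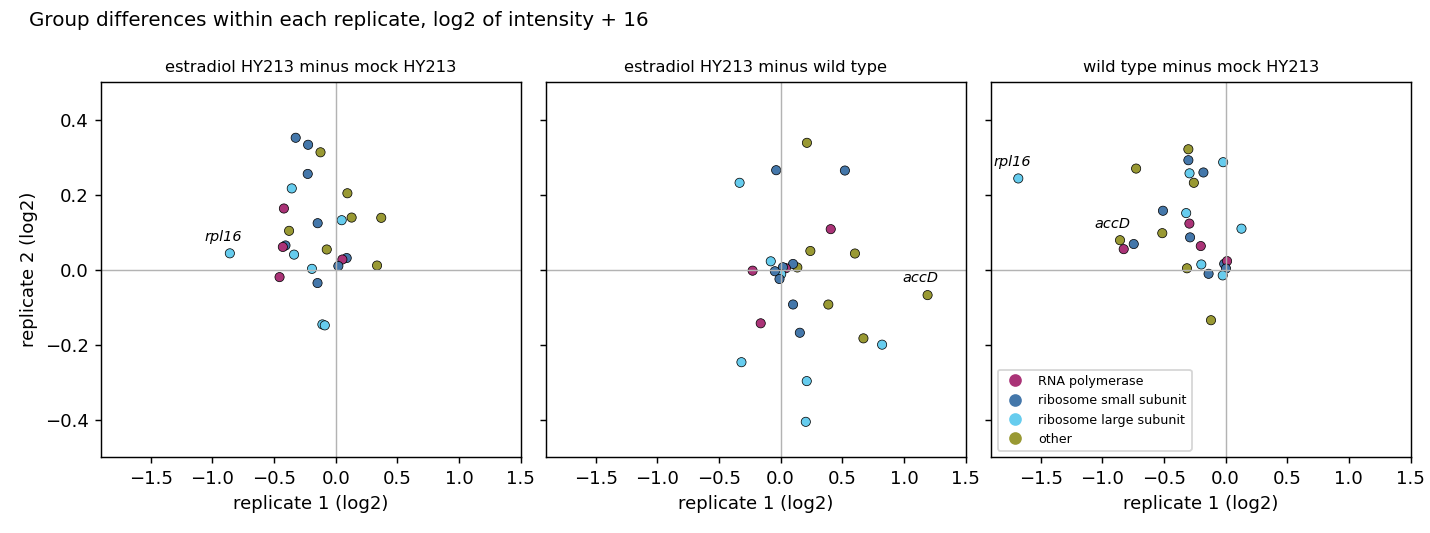
Differences between groups within replicate 1 (horizontal axis) and within replicate 2 (vertical axis, which spans a narrower range), log2(intensity + 16), 1 point for each of the 26 genes, coloured by role. In wild type minus mock HY213, 20 of 26 points lie left of 0 and above 0, rpl16 being the furthest left, and in estradiol HY213 minus wild type accD lies far right at a replicate 2 difference near 0.

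The 3 group comparisons share arrays, so their signs are not independent of each other. In replicate 1 the mock HY213 array was the highest of the 3 in 18 of 26 members and the wild-type array the lowest in 16, against 37.5% and 32.5% of all probe sets. In replicate 2 the mock HY213 array was the lowest in 20 of 26, against 36.4%. Of the 3 green tissue markers, RCA read 644, 461 and 195 in replicate 1, in the same order of arrays as rpl16, and 906, 838 and 1036 in replicate 2. The other markers did not follow that order in replicate 1, where LHCB4.1 read 1024, 908 and 1044 and PSAN 338, 256 and 265. The 25S rRNA control read 1248, 1048 and 756 in replicate 1, in the same order of arrays as RCA. The part of these in the members' differences was not tested.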

How the data were processed

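The deposited table gives 1 linear intensity for each of 22810 probe sets on 6 arrays. MAS5 and RMA appear in the submitters' processing notes with no role or version, and it is not known which made the table. That choice affects dim probe sets most. Groups and replicate numbers come from the sample titles. The 64 control probe sets were left out, which leaves 22746, of which platform annotation lists 13513 for 1 gene. Genes were matched to RefSeq (TAIR10.1) by gene ID, and gene order was taken from it without coordinates, since the files state no build. No sequences were used here.

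A log2(intensity + 16) scale was used with limma 3.58.1 under R 4.3.3 (trend prior, Benjamini-Hochberg over all probe sets, threshold 0.05). The pseudocount understates changes of dim genes. Group comparisons used 3 groups without a block (3 residual degrees of freedom), and the replicate comparison used group and replicate number (2). The number of arrays limits the precision: an exact two-sided permutation test cannot go below 0.333 with 2 arrays against 2, or 0.1 with 3 against 3. Deviations from the group means correlated across probe sets between same-numbered arrays (r 0.693, 0.822 and 0.665 for the 3 pairs of groups). The number was therefore taken as a pairing in the fits with the replicate block. The group comparisons without a block ignore it. The fits were tested on simulated data.

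The members, lists and tests were chosen with earlier results of these data known. All members are named. Log2 differences are given for the 2 highest and 2 lowest members in each comparison and the 3 brightest and 3 dimmest, and from each nuclear list up to 3 genes by mean level are named. Differences of other members, and PYG7, were chosen after their values were seen. Alternatives were normalization, pseudocount, dim filters, prior, arrays in the fit, block, threshold and each array left out. In the replicate comparison, leaving out either array of a group is nearly the same fit, since a lone array adds nothing to the replicate difference. Averaging probe sets of a gene was not run, since each member has 1.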

Additional observations from a re-analysis of the deposited data

Results flagged for a closer look

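The gene rpl16 stood out because its difference between the replicate numbers took opposite signs in 2 groups: replicate 2 minus replicate 1 was -1.02 on the log2(intensity + 16) scale in mock HY213 and 0.91 in estradiol-treated wild type. With 1 array for each group and number, this difference was not tested.

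Of the 7 plastid probe sets listed under 2 gene IDs, which no comparison uses, 6 read above the Bacillus controls on all 6 arrays. Their means over the 6 arrays were 10.2, 147, 1309, 838, 698 and 40.3. The one at 698 read 1368, 1091 and 875 in replicate 1 and 277, 311 and 265 in replicate 2, and the one at 1309 read 1360, 1450 and 1439 against 1129, 1204 and 1269.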

How the results depend on the processing

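For the 3 group comparisons the count of members called stayed at 0 in every alternative run, the replicate block included, where 0 probe sets were called in each; the block changed no call. With 1 array left out, the lone array being assumed to vary like the other groups, probe sets called numbered 0 to 13 in the first comparison (mock), 0 to 16 in the second (wild type on estradiol) and 0 in the last pair. The signs of most named members turned in this step. When the array left out belongs to a compared group, 1 lone array is set against arrays of both replicate numbers. Without a block, the difference between the replicate numbers then enters the group difference. Against mock, accD ranged from -0.75 to 1.09, rpl16 from -0.92 to 0.10, rpoC1 from -1.28 to 0.81 and ycf4 from -0.078 to 0.59. Against wild type, accD ranged from -0.36 to 1.48, rps4 from -0.90 to 1.69, rpl36 from -0.80 to 0.24 and rpoC1 from -0.99 to 0.68. In the last pair accD ranged from -1.15 to 0.37, rpl36 from -0.35 to 0.62 and rpl16 from -1.23 to -0.21. Between replicate numbers, 13 members and 2510 probe sets were called. These became 4 and 431 without a mean-variance trend, 7 to 15 and 637 to 4062 with 1 array left out (7 without either estradiol HY213 array), and 4216 probe sets at an adjusted p of 0.1. Keeping the 12103 probe sets above the Bacillus controls on all arrays, chosen after seeing the data, gave 14 members. Raising all values to the highest Bacillus control, also chosen then, makes 34.1% of probe sets constant, and gave 0 members and 0 probe sets between replicates, 4 probe sets in the first comparison and 2 in the second; the cause was not tested. The members ccsA, rpoC1, rps4, matK, clpP, accD and rps2 were called with each array left out. For the replicate difference, the 2 arrays of a group are not separate checks, since leaving out either is nearly the same fit. Over the other alternatives rps2 ranged from -1.10 to -0.38, rpoC2 from -1.16 to -0.42, accD from -1.93 to -0.68 and ycf3 from -0.80 to -0.11. Dim signal limits rpoB, rps14, rps15, rps16 and rpl20.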

Other observations

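The 3 groups lay further apart within replicate 1 than within replicate 2 for many members. Of the 22 members above the Bacillus controls on all arrays, 17 had a larger ratio of the highest to the lowest of the 3 arrays in replicate 1, against 63.0% of all probe sets. That share includes the probe sets at background, so the 2 sets are not filtered alike. The median ratio over these 22 members was 1.42 in replicate 1 and 1.23 in replicate 2.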
